A study of Homo sapiens with 6 samples.

Results

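The proteasome genes were followed in SH-SY5Y cells, an established human neuroblastoma line used as a neuronal model, by symbol: every gene whose single annotated symbol was PSM followed by a letter from A to G and a number, each represented by its brightest probe set over the 6 arrays. This pattern found 47 of the 18244 genes with a single-symbol probe set. Of these, 45 encode proteasome subunits, activators, an inhibitor or assembly chaperones. The other 2, *PSMC3IP* (a factor of homologous recombination) and *PSME3IP1* (a partner of an activator), match the pattern by name only. Not every 19S subunit gene was analysed here. The cells carried either an inhibitor of miR-137 (hsa-miR-137 anti-miR, 3 arrays) or a negative control anti-miR (3 arrays), given at 15 pM with a lipid reagent 24 hours after seeding. Total RNA was taken 72 hours after transfection and hybridised to 1-colour arrays. The question was which transcripts respond to loss of miR-137 activity, and the arrays are numbered 1 to 3 in both groups. Nothing in the labels ties the numbers to separate cultures, so the error behind each p-value is array-to-array spread, part of which may be technical.

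The proteasome degrades proteins tagged with ubiquitin. Its 20S core is a barrel of alpha rings, which gate the entrance, and beta rings, which carry the proteolytic sites. The 19S cap binds ubiquitin chains, removes them and unfolds the substrate with a ring of ATPases. In cells exposed to interferon, and constitutively in blood cells, the catalytic beta subunits are replaced by the immunoproteasome subunits encoded by *PSMB8*, *PSMB9* and *PSMB10*, and the PA28 activator encoded by *PSME1* and *PSME2* is induced with them. Expression of the constitutive subunits is coordinated in part by the transcription factor NFE2L1.

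The sequences below show the microRNA the inhibitor is named for and promoter letters that some of these genes share. The 3p form of miR-137, from RefSeq (GRCh38.p14), is printed 5′ to 3′ with its seed, bases 2 to 8, in capitals. It lies at chr1:98046091-98046113 on the minus strand.

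hsa-miR-137-3p: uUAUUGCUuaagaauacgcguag

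RefSeq promoter windows of 300 bases (250 before to 50 after a gene start, GRCh38.p14) were found for 41 of the 47 genes, 51 windows in all. The core of the interferon-stimulated response element, GAAA, any 2 bases and GAAA again, on either strand, was present in 4 of the 6 windows of *PSMB8*, *PSMB9*, *PSMB10*, *PSME1* and *PSME2* (66.7%). It was in 2 of the 14 windows of constitutive 20S subunits (14.3%, *PSMA4* and *PSMB4*), in 0 of the 14 windows of 19S subunits, in 7 of the 51 windows of all matched genes (13.7%) and in 3.57% of all 35116 windows. The 4 immunoproteasome and PA28 windows that hold it follow, with the match in capitals: *PSMB8* (the 1 of its 2 windows with a match, chr6:32843998-32844297, minus strand), *PSME1* (chr14:24135944-24136243, plus strand), *PSME2* (chr14:24146561-24146860, minus strand) and *PSMB10* (chr16:67936801-67937100, minus strand).

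PSMB8: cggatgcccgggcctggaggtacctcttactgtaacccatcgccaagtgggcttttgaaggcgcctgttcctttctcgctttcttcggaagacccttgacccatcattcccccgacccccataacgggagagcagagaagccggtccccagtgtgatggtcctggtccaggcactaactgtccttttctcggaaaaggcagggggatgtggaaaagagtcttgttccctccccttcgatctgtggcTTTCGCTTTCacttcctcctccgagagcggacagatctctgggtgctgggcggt

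PSME1: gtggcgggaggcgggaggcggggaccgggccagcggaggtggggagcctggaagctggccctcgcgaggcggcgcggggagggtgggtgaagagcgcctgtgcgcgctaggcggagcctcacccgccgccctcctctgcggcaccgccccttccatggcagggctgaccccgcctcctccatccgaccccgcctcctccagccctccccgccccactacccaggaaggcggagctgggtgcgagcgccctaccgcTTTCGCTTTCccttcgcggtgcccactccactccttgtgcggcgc

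PSME2: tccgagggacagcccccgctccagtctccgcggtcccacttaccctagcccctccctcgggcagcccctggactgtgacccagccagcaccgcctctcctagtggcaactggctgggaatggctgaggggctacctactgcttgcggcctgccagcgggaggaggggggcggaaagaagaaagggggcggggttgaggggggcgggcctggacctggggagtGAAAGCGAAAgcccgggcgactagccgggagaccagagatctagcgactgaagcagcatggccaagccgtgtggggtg

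PSMB10: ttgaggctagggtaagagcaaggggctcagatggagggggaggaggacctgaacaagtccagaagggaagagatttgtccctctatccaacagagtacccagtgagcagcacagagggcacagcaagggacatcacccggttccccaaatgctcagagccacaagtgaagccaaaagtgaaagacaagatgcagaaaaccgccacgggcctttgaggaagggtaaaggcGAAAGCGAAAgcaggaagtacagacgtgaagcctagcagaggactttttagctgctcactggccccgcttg

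The match ran from base -4 relative to the start in *PSMB8*, 5 in *PSME1*, -28 in *PSME2* and -21 in *PSMB10*. The core of the ETS factor site, CCGGAA on either strand, had another distribution. It was present in 10 of the 14 windows of 19S subunits (71.4%), in 2 of the 14 windows of constitutive 20S subunits (14.3%), in 0 of the 6 immunoproteasome and PA28 windows and in 17.2% of all windows. The window of *PSMD2*, a 19S base subunit (chr3:184298991-184299290, plus strand, the 1 of its 2 windows with a match), shows the match in capitals.

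PSMD2: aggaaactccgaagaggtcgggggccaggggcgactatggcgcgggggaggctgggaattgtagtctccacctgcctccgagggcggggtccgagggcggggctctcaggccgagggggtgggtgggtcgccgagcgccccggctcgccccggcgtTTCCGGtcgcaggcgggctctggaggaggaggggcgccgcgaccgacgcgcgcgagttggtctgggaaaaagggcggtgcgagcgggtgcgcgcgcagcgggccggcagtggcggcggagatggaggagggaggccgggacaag

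The antioxidant response element core TGACNNNGC, of the kind NFE2L1 binds, was in 14 of 51 windows of the matched genes (27.5%), against 13.3% of all windows. By role it was in 3 of the 6 immunoproteasome and PA28 windows (50%, *PSMB9*, *PSME1* and *PSME2*), in 4 of the 14 windows of 19S subunits (28.6%, *PSMC4*, *PSMD1*, *PSMD3* and *PSMD12*) and in 2 of the 14 windows of constitutive 20S subunits (14.3%, *PSMA4* and *PSMB3*). The CCAAT box was in 43.1% of the matched windows and 34.6% of all, and TATAAA in 7.84% and 11.5%. The median share of G and C was 62.0% in the matched windows and 58.7% in all. These matches are a description of letters; none was tested, and the motifs can overlap each other.

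Nearly all proteasome genes gave a signal above the filter on dim probe sets, a mean log2 value of 5.69 (the 40th percentile over probe sets). The filter kept 44 of the 47 genes, 42 of them with a proteasome role, and 12637 genes in all. The 3 genes below it were the testis form of an alpha subunit *PSMA8* (mean 3.72), the thymus form of a catalytic subunit *PSMB11* (4.10) and the immunoproteasome subunit *PSMB9* (5.22). *PSMB8* was the member closest above it, with a mean of 6.62. Brightness depends on the probes as well as on the transcript, so values of different genes are not compared as amounts. The 44 genes varied little: the median range over the 6 arrays was 0.20 log2 units, against 0.268 for all genes tested. The widest range belonged to *PSMB8* (0.603) and the narrowest to the beta subunit gene *PSMB4* (0.0423).

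**Figure D1:**
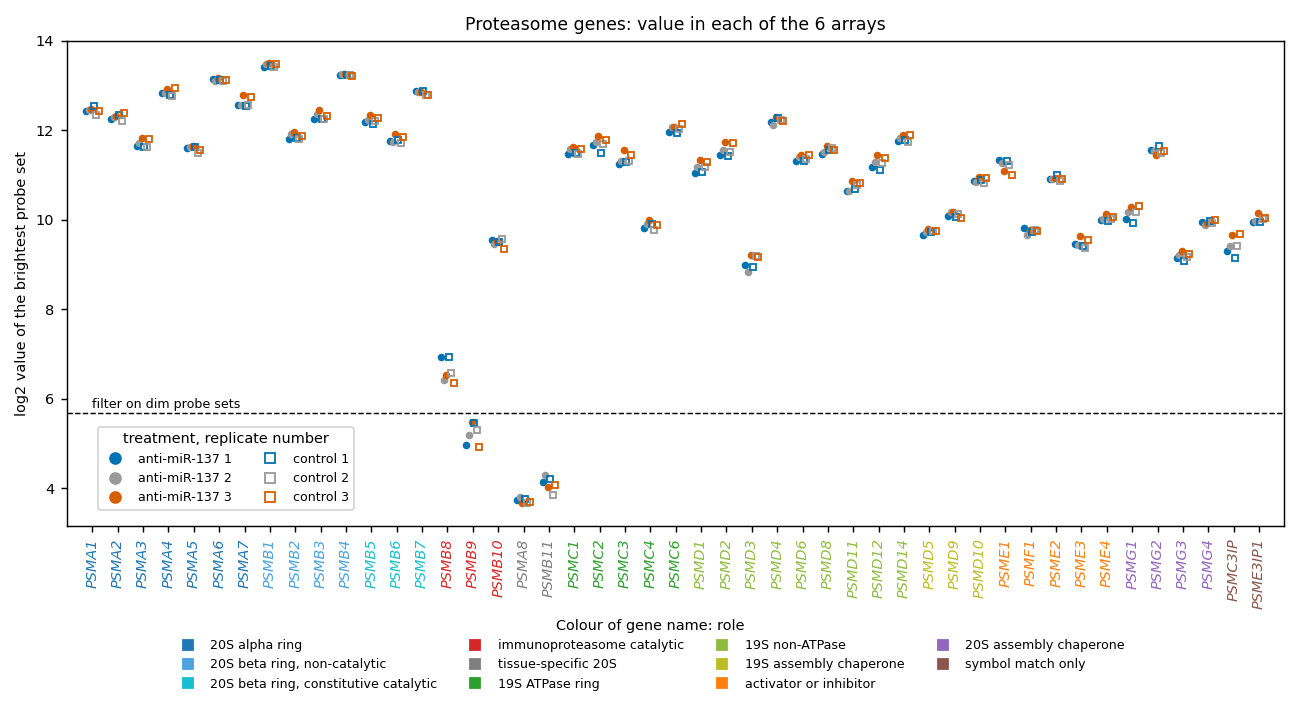
Log2 value of the brightest probe set (y axis) of each of the 47 genes (x axis, names coloured by role) in each of the 6 arrays; filled circles are anti-miR-137 arrays, open squares control arrays, and colours give the replicate number. The median range over the 6 arrays is 0.20, and *PSMB9*, *PSMA8* and *PSMB11* lie below the dashed line, the filter on dim probe sets.

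The constitutive catalytic subunits gave steady values in every array. *PSMB5*, which encodes the chymotrypsin-like subunit and main target of proteasome inhibitor drugs, read 12.18, 12.23 and 12.35 in the anti-miR-137 arrays of replicates 1, 2 and 3 and 12.14, 12.21 and 12.28 in the control arrays. *PSMB6*, the caspase-like subunit gene, read 11.77, 11.73 and 11.91 against 11.78, 11.72 and 11.85. *PSMB7*, the trypsin-like subunit gene, read 12.87, 12.86 and 12.86 against 12.87, 12.79 and 12.78. For each of the 3 the treatment groups overlapped, and the spread between arrays was at most 0.209 log2 units.

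Of the tested immunoproteasome and PA28 genes, *PSMB8* (range 0.603) and *PSME1* (0.35) varied more between arrays than the constitutive catalytic genes. The ranges of *PSMB10* and *PSME2* were 0.21 and 0.138 log2 units. *PSMB8*, the inducible counterpart of *PSMB5*, read 6.93, 6.41 and 6.53 in the anti-miR-137 arrays of replicates 1, 2 and 3 and 6.94, 6.58 and 6.34 in the control arrays. The replicate 1 arrays of both treatments were the highest, and the treatment groups overlapped. *PSMB9*, the counterpart of *PSMB6*, stayed below the filter in all 6 arrays, between 4.92 and 5.48, with no array group apart from the rest. *PSMB10*, the counterpart of *PSMB7*, read 9.54, 9.46 and 9.53 against 9.50, 9.56 and 9.35. *PSME1* (PA28 alpha) read 11.35, 11.26 and 11.08 against 11.31, 11.22 and 10.99, both replicate 3 arrays being the lowest. *PSME2* (PA28 beta) read 10.91, 10.92 and 10.93 against 11.00, 10.87 and 10.92 and showed no such order. Haematopoietic cells carry immunoproteasome, so their markers were read as well. Of 6 markers with a probe set, 3 passed the filter (*CD68*, *LCP1* and *TYROBP*, at most 7.69). *PTPRC*, *CD14* and *CD3E*, defining markers of leukocytes, monocytes and T cells, stayed below it in their means. The summed log2 level of the 6 was 34.3 to 34.4 in the anti-miR-137 and 33.3 to 34.9 in the control arrays. All 9 measured sympathetic neuroblastoma markers passed the filter, between 8.15 (*TH*) and 14.5 (*CHGA*).

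No proteasome gene differed between anti-miR-137 and control arrays by more than the spread between arrays. In limma with treatment as the only term and Benjamini-Hochberg adjustment over all genes, 0 of the 44 genes had an adjusted p under 0.05, as did 0 of 12637 genes (0%). At an unadjusted p under 0.05 there were 0 of the 44 and 335 of all genes (2.65%). The anti-miR-137 and control arrays overlapped for all 44, where 7.36% of all genes had groups that did not overlap and 4.19% had every anti-miR-137 array above every control array. The differences at the brightest probe sets lay between -0.10 (*PSMD3*) and 0.10 (*PSMC2*) on the log2 scale, which is 0.935-fold and 1.07-fold. Their median was 0.024, against 0.0033 for all genes. The other probe sets of *PSMD3* gave -0.31 and -0.16 above the filter and 0.16 below it. Of the 44, 35 had a higher mean in anti-miR-137 arrays, where 52% of all genes did. The median of the 42 genes with a proteasome role was 0.022. It was -0.0097 without the anti-miR-137 array of replicate 3 and 0.053 without the control array of replicate 3. With each array centred on its median it was 0.0057, with averaged probe sets 0.0095 and with a further quantile normalization 0.036.

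The 95% confidence interval lay within 0.5 log2 units of 0 for all 44 genes and within 0.25 for 34 of them, against 12064 and 6295 of the 12637 genes. The widest interval was that of *PSMB8*, -0.43 to 0.43.

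**Figure D2:**
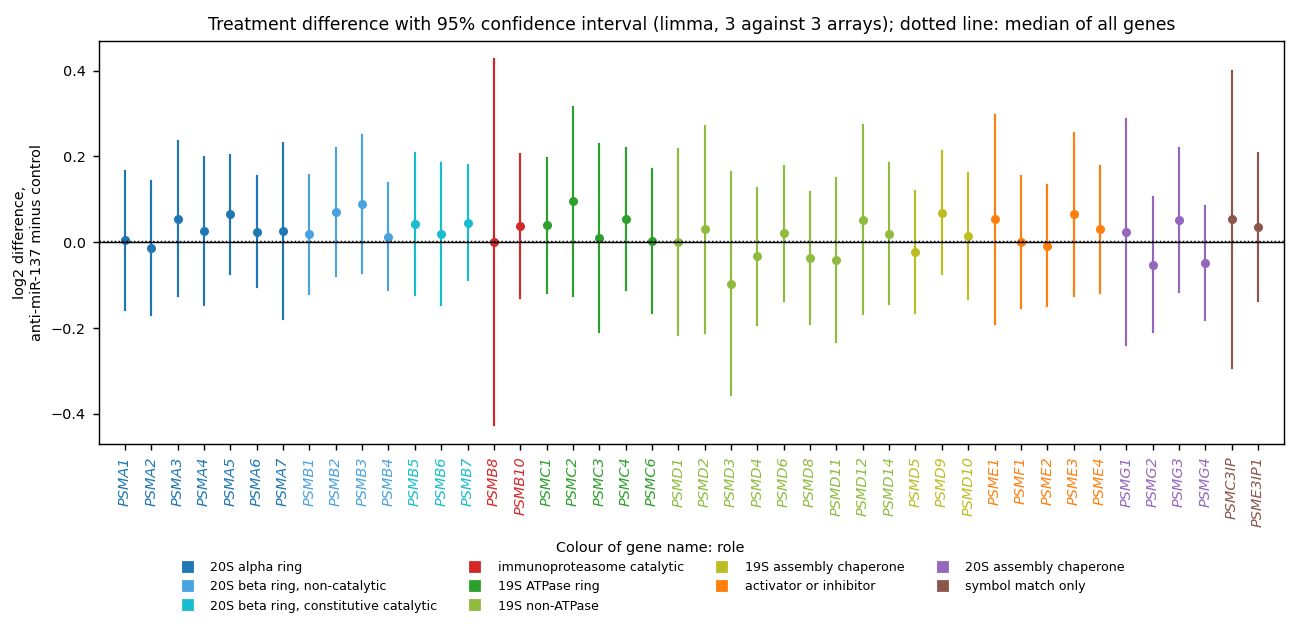
Log2 difference of anti-miR-137 minus control (y axis) for the 44 genes above the filter (x axis), as points with 95% confidence intervals from limma over 3 against 3 arrays, coloured by role; the dotted line is the median of all genes tested. All intervals include 0, and the points lie between -0.10 and 0.10.

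By role, the members differed little from 0 between treatments. In the alpha ring, 6 of 7 genes had a higher mean in anti-miR-137 arrays, with a median of 0.027; in the non-catalytic beta subunits 4 of 4 did (median 0.044), and in the constitutive catalytic ones 3 of 3 (median 0.043). All 5 measured 19S ATPases had a higher mean (median 0.040), as did 5 of 9 other 19S subunits (median 0.00049). The chaperones of 19S assembly had a median of 0.014, those of 20S assembly -0.013, and the activators with the inhibitor 0.030. None of these passed the test.

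For the 5 genes with the smallest p between treatments, limma gave an adjusted p of 1.00. *PSMB3*, a structural beta subunit, read 12.25, 12.37 and 12.45 in anti-miR-137 arrays and 12.25, 12.25 and 12.31 in control arrays, a log2 difference of 0.09 with a standard error of 0.069. The highest readings came from the anti-miR-137 arrays of replicates 2 and 3, while the replicate 1 arrays read alike at 2 decimals. *PSMC2*, an ATPase of the 19S ring, read 11.67, 11.73 and 11.87 against 11.49, 11.70 and 11.79, a difference of 0.10 (standard error 0.094). Its 2 other probe sets had the opposite sign (-0.16, and -0.09 at one below the filter), and the mean of its probe sets above the filter gave -0.03. The alpha subunit gene *PSMA5* read 11.61, 11.62 and 11.65 against 11.62, 11.50 and 11.56 (difference 0.07). *PSMB2*, another structural beta subunit, read 11.81, 11.93 and 11.96 against 11.82, 11.81 and 11.86 (difference 0.07). Its 2 other probe sets gave 0.07 and -0.12, and the mean of the 3 gave 0.0086. *PSMD9*, a chaperone of 19S assembly, read 10.07, 10.17 and 10.18 against 10.06, 10.12 and 10.04 (difference 0.07), and its other probe set gave -0.05, with a mean of 0.0079. In all 5 the groups overlapped, and single arrays moved the values: *PSMC2* had 0.013 without the control array of replicate 1, *PSMB3* 0.042 and *PSMB2* 0.039 without the anti-miR-137 array of replicate 3, and *PSMA5* 0.034 without the control array of replicate 2. Across the 32 genes with more than 1 probe set, 34 of 65 other probe sets had the sign of the brightest one.

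Between replicate numbers 3 and 1, 5 of the 44 matched genes differed, a share near the 8.23% of all genes. *PSMD2*, *PSMG1* and *PSMC3IP*, the last no proteasome subunit, were higher in number 3 than in number 1, and *PSMB8* and *PSME1* were lower. Each number holds 1 array of each treatment, so numbers were compared with treatment in the model. In limma's F test over the 3 numbers, 0 of the 44 genes had an adjusted p under 0.05 (smallest 0.059, *PSMC3IP*), against 320 of 12637 genes (2.53%). At an unadjusted p under 0.05 there were 11 of the 44 and 2966 of all genes (23.5%). Between numbers 3 and 1, 5 of the 44 genes passed an adjusted p under 0.05, 3 higher and 2 lower in number 3, against 1040 of all genes (8.23%), of which 4.39% were higher and 3.84% lower. At an unadjusted p under 0.05 there were 15 of the 44, against 28.4% of all genes. Between numbers 2 and 1 limma called 0 of the 44 (0.0317% of all genes), and 3 of the 44 had an unadjusted p under 0.05 (13.2% of all genes). Between numbers 3 and 2 it called 0 of the 44 (0.00791%), and 7 had an unadjusted p under 0.05 (16% of all genes). The 5 calls did not hold with any of the 4 arrays of numbers 1 and 3 left out (0 of 44 in each case, and at most 3 of all genes), which leaves a single array on 1 side, nor without the filter on dim probe sets (0 of 47, 169 of all 18244 genes). Without either array of number 3, 0 of all genes passed, so every call between numbers 3 and 1 given for any gene here was then lost.

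**Figure D3:**
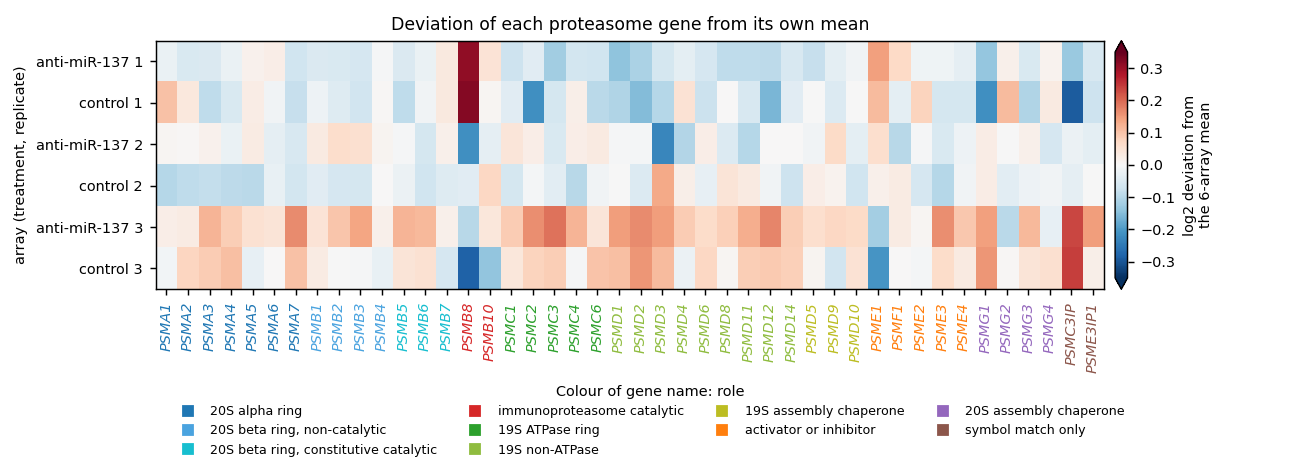
Log2 deviation of each of the 44 genes (x axis, names coloured by role) from its own 6-array mean, for each array (y axis, ordered by replicate number); red is above and blue below the mean, and colours saturate at 0.35. Both replicate 3 rows are mostly red over the 19S genes and blue at *PSMB8* and *PSME1*. Over the constitutive 20S genes the mean deviation is 0.076 in the anti-miR-137 array of replicate 3 and 0.027 in the control array, which is of mixed colour there.

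The 19S subunits matched by symbol had higher means in replicate 3, most of them without passing the test. The 14 *PSMC* and *PSMD* cap subunits tested are not the whole cap. All 14 had a higher mean in number 3 than in number 1, where 47% of all genes did. They also had a higher mean than in number 2, where 48% did. The cap subunits *ADRM1* and *SEM1* do not match the pattern and are given with the partners below. For 12 of the 14, both arrays of number 3 lay above both arrays of number 1, against 28.9% of all genes. The median difference between numbers 3 and 1 was 0.17 log2 units, against -0.012 for all genes, and 1 of the 14 passed the adjusted threshold. That was *PSMD2*, which encodes the scaffold Rpn1. It read 11.46, 11.56 and 11.73 in anti-miR-137 arrays and 11.42, 11.52 and 11.72 in control arrays. Both replicate 3 arrays were the highest, and both replicate 1 arrays the lowest. Number 3 was higher than number 1 by 0.29 log2 units (standard error 0.059, 1.22-fold, adjusted p = 0.043 in limma, 2 against 2 arrays), and its 2 other probe sets gave 0.35 and, below the filter, 0.89. With a further quantile normalization the value was 0.24 (adjusted p = 0.061). Both probe sets of *PSMD2* above the filter are of a class that may cross-hybridise, and without that class the gene was not tested.

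Other 19S genes showed the same order of arrays without passing. *PSMD12*, a lid subunit, read 11.19, 11.28 and 11.45 in anti-miR-137 arrays and 11.12, 11.27 and 11.37 in control arrays, a difference of 0.26 between numbers 3 and 1 (adjusted p = 0.060, limma, 2 against 2 arrays). *PSMD1*, the scaffold Rpn2, read 11.04, 11.18 and 11.32 against 11.07, 11.18 and 11.29, a difference of 0.25 (adjusted p = 0.064). Among the ATPases, *PSMC2* had a difference of 0.25 and *PSMC3* one of 0.23. The other probe sets gave 0.12 to 0.21 for *PSMD12* and 0.25 for *PSMD1*. The ubiquitin receptor gene *PSMD4*, in contrast, had 0.03 (interval -0.17 to 0.22).

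For the 20S core, differences of both signs were seen. Of the 14 constitutive alpha and beta subunits, 10 had a higher mean in number 3 than in number 1, with a median difference of 0.085, and none passed. *PSMA7*, the alpha subunit with the smallest p, read 12.56, 12.57 and 12.79 in anti-miR-137 arrays and 12.55, 12.57 and 12.73 in control arrays. Only the replicate 3 arrays stood apart, and the difference between numbers 3 and 1 was 0.21 (adjusted p = 0.092, limma, 2 against 2 arrays). *PSMB5* had 0.15, and its 4 other probe sets 0.15 to 0.26. *PSMB7* had -0.05 and *PSMB4* -0.0043.

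Among the immunoproteasome and PA28 genes, *PSMB8* and *PSME1* fell between numbers 1 and 3. *PSMB8* was lower in number 3 than in number 1 by a log2 difference of -0.51 (standard error 0.095, 0.705-fold, adjusted p = 0.036 in limma, 2 against 2 arrays). The arrays of number 2 were also low (-0.44 against number 1, adjusted p = 0.19), so the replicate 1 arrays are those that stood apart. Both other probe sets of *PSMB8* had the same sign (-0.42 and -0.24) and lay below the filter. *PSME1* had a difference of -0.29 (standard error 0.060, 0.818-fold, adjusted p = 0.044), with -0.30 and -0.22 at its other probe sets, all above the filter. Its call was lost by a small margin when the probe sets were averaged (adjusted p = 0.0503), when each array was centred on its median (0.0504) and without probe sets that may cross-hybridise (0.0519). *PSMB10* had -0.08 (interval -0.28 to 0.13) and *PSME2* -0.03 (-0.20 to 0.13). Of the 4 immunoproteasome and PA28 alpha-beta genes that were tested, 2 passed, both lower in number 3, where 8.23% of all genes passed and 3.84% were lower.

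**Figure D4:**
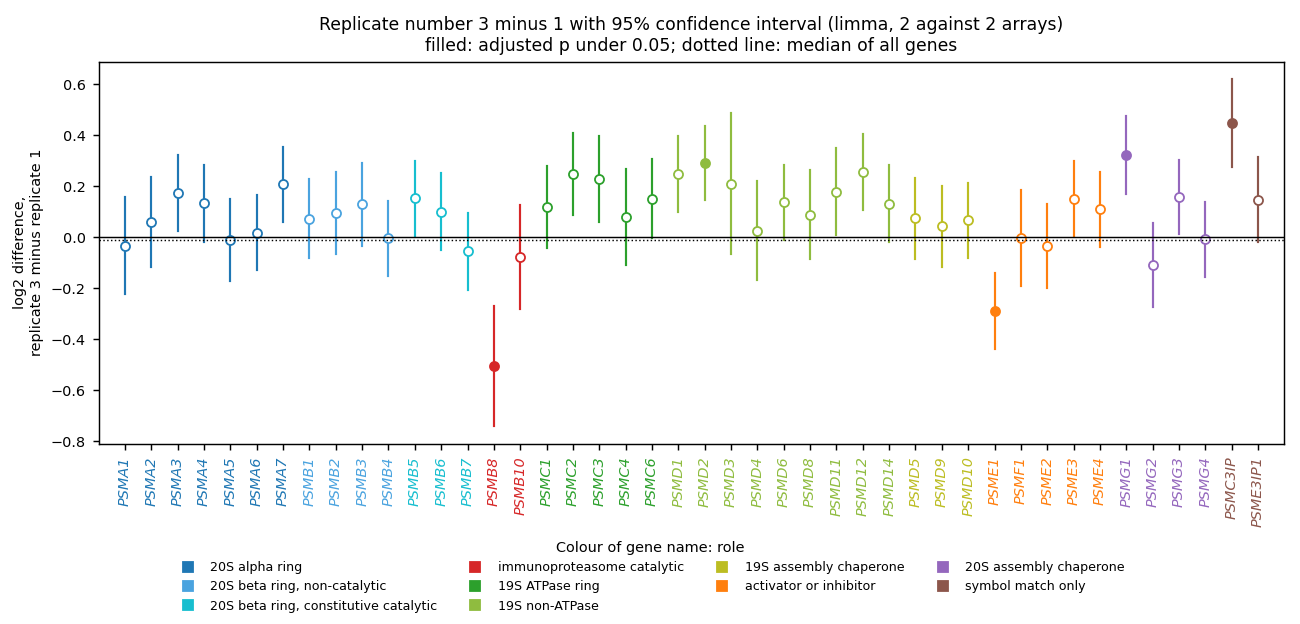
Log2 difference of replicate number 3 minus number 1 (y axis) for the 44 genes above the filter (x axis), as points with 95% confidence intervals from limma over 2 against 2 arrays, coloured by role; filled points have an adjusted p under 0.05 and the dotted line is the median of all genes. *PSMB8* (-0.51) and *PSME1* (-0.29) lie below 0, and *PSMD2* (0.29), *PSMG1* (0.32) and *PSMC3IP* (0.45) above it.

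Assembly chaperones and other regulators differed among themselves. *PSMG1*, a chaperone that starts assembly of the alpha ring, read 10.01, 10.17 and 10.28 in anti-miR-137 arrays and 9.93, 10.16 and 10.30 in control arrays. Number 3 was higher than number 1 by 0.32 (standard error 0.062, 1.25-fold, adjusted p = 0.038 in limma, 2 against 2 arrays), on its single probe set. Its partner in the same heterodimer, *PSMG2*, had -0.11 (interval -0.27 to 0.055). *PSMG3* had 0.16 and *PSMG4* -0.0082. The nuclear activator gene *PSME3* had 0.15 and *PSME4*, which encodes PA200, 0.11, while the inhibitor gene *PSMF1* had -0.0033, and none of these passed. *PSMC3IP*, which is no proteasome subunit, read 9.30, 9.41 and 9.67 against 9.14, 9.40 and 9.68. Its difference was 0.45, the highest positive one of the 44 genes (standard error 0.070, 1.36-fold, adjusted p = 0.025). *PSME3IP1* had 0.15, and its 2 other probe sets -0.01 each.

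**Figure D5:**
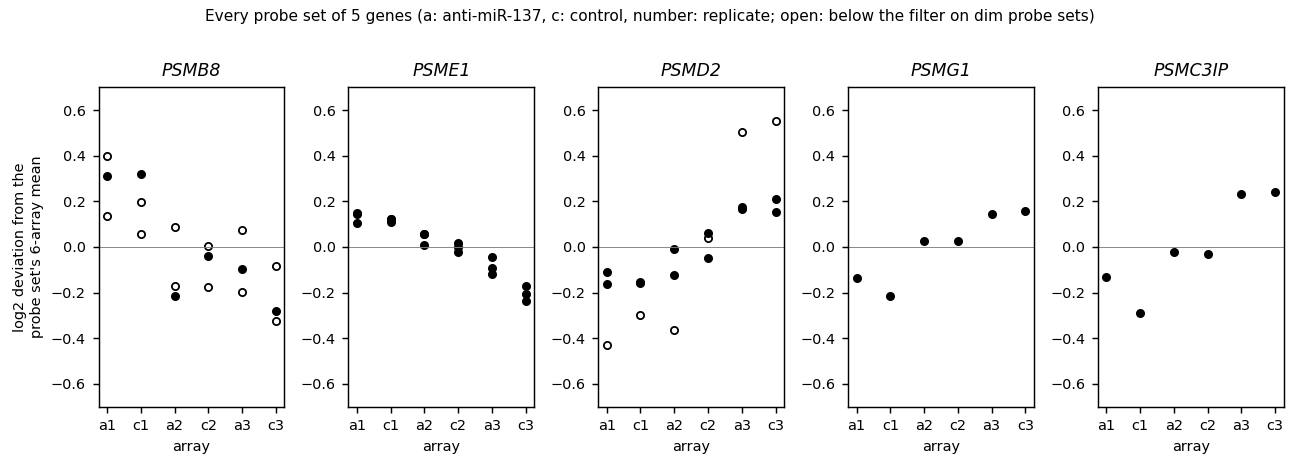
Log2 deviation of every probe set from its own 6-array mean (y axis) in each array (x axis; a, anti-miR-137; c, control; the number is the replicate) for the 5 genes that passed between replicate numbers 3 and 1; open points are probe sets below the filter. The 3 probe sets of *PSME1* lie together, with the lowest points in both replicate 3 arrays, and *PSMG1* and *PSMC3IP* have 1 probe set each.

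Other array properties differed between the same numbers, and their part in these differences was not tested. For 38 of 38 tested cell cycle genes of the G1/S and replication list, number 3 was higher than number 1. Of these, 29 passed the adjusted threshold, and the median difference was 0.48. Over all genes tested, 47% had a higher mean in number 3 than in number 1, 4.39% passed as higher and 3.84% passed as lower. As a mean deviation over the list, the anti-miR-137 arrays of replicates 1, 2 and 3 had -0.18, -0.030 and 0.28 and the control arrays -0.28, -0.033 and 0.24. The same measure over the 14 symbol-matched subunits of the 19S cap was -0.079, -0.028 and 0.12, against -0.073, -0.011 and 0.071. The 3′ minus 5′ signal of the *ACTB* control probe sets, a measure of RNA integrity and amplification, was 1.68 and 1.69 in replicate 3 and 1.79 to 1.87 in the others, while that of *GAPDH* was 0.21 to 0.24 in all. The RNA integrity numbers were 9.5 and 9.7 in replicate 1, 9.7 and 9.8 in replicate 2, and 9.7 in both arrays of replicate 3. Of 6 mesenchymal neuroblastoma markers, 4 passed the filter, and 2 of them, *VIM* (-0.40) and *YAP1* (-0.65), were lower in number 3 than in number 1 past the threshold. Of the other 2, *SNAI2* went the other way (0.38, adjusted p = 0.28 in limma), so 3 of the 4 had lower means and 1 a higher one. Their summed log2 level over the 6 was 47.6 to 48.3 in replicate 1, 46.5 to 47.0 in replicate 2 and 46.3 to 47.2 in replicate 3, with the defining markers *PRRX1* and *CD44* below the filter. Of the 9 sympathetic markers, 6 had a higher mean in number 3 than in number 1 and 3 a lower one. Only *ELAVL4* passed (0.41, adjusted p = 0.022 in limma), and the lowest difference was that of *TH* (-0.24). Of the haematopoietic markers that passed the filter, 3 of 3 had lower means in number 3 than in number 1, none past the threshold. All 3 glial markers passed the filter, none differed past a threshold, and their summed level was 22.0 to 22.2. In bulk RNA, fewer cells of a type and less RNA per cell cannot be told apart.

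In the wider ubiquitin pathway no gene passed between treatments. Of 30 listed partners (receptors, deubiquitinases, shuttles, the segregase VCP and the NFE2L1 axis), 26 were tested, and 0 passed between treatments, with a median of -0.0098. The smallest p belonged to the shuttle factor gene *RAD23B* (-0.32), *DDI2*, the protease that activates NFE2L1 (0.13), *VCP* (-0.16) and *BAG6* (0.07). Between numbers 3 and 1, 2 of the 26 passed, both higher, a share near the 8.23% of all genes. *USP14*, a deubiquitinase bound to the cap, had 0.33 (adjusted p = 0.032 in limma) and *UFD1*, a cofactor of VCP, 0.38 (adjusted p = 0.028). *ADRM1*, the cap's ubiquitin receptor Rpn13, had 0.28 and *NGLY1*, a deglycosylase that acts on NFE2L1, -0.23, and neither passed. *SEM1*, another cap subunit gene, had 0.0033. *NFE2L1* itself had 0.15 and *POMP*, the maturation factor of the core, 0.05.

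Partners of the immunoproteasome in antigen presentation had lower means in number 3 for most genes, and the share that passed was near that of all genes. Of 16 listed genes 11 were tested, with a median difference of -0.14 between numbers 3 and 1, and 9 of the 11 had a lower mean and 2 a higher one, where 47% of all genes were higher. *HLA-C* alone passed (-0.37, adjusted p = 0.045 in limma), 1 of 11 genes against 8.23% of all. *CALR* had -0.32, *TAPBP* -0.20 and *PDIA3*, which also serves general protein folding, 0.47, none past the threshold. *TAP1*, a peptide transporter gene that lies between *PSMB8* and *PSMB9* in RefSeq's gene order on chromosome 6, lay below the filter, between 5.23 and 5.65. Its replicate 3 arrays were the lowest, at 5.36 and 5.23. Between treatments none of the 11 passed. *ERAP1* (0.18), *PDIA3* (-0.23), the transcription factor *IRF1* (0.11) and *TAPBP* (0.09) had the smallest p.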

How the data were processed

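Total RNA of 6 SH-SY5Y samples, 100 ng each, was amplified, labelled with biotin and hybridised to 1-colour arrays, per the labels' protocols. The authors processed the arrays with RMA in R 3.0.1, per the submitters' processing notes, and deposited log2 values per probe set, from 2.98 to 15.3. RMA makes the distributions of the arrays alike, so a shift of all transcripts together cannot be seen; array medians lay between 6.39 and 6.43. No genome build is given in the sources used here. Precision is limited by having 6 arrays.

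Of 49495 probe sets, 102 controls and those without exactly 1 symbol in the platform annotation were left out (45278 stayed). Probe sets with a mean at or above the 40th percentile (27510) were kept and the brightest one of each gene was used, which gave 12637 genes; the 47 proteasome symbols had 114 probe sets. Treatments, and replicate numbers with treatment as a term, were tested in R 4.3.3 with limma 3.58.1 (two-sided, Benjamini-Hochberg over all genes, threshold 0.05). The members and lists were chosen with earlier results of these data known. All members are accounted for; values in every array are given for the catalytic, immunoproteasome and PA28 alpha-beta genes, the 5 with the smallest treatment p and the 8 with the smallest F test p, and from each partner list the 4 with the smallest p are named. *PSMC3*, *PSMD4*, *NFE2L1*, *POMP*, *SEM1* and *TAP1* were added after their values were seen. The fits were tested on simulated data with 200 changed genes. Between treatments, 0%, 58.8% and 91.6% of changes of 0.3, 0.5 and 1 log2 units were recovered. Between numbers 3 and 1 the shares were 0%, 0% and 83.2%. Small changes in few genes can therefore be missed. In the data 1040 genes passed between numbers 3 and 1, against 200 changed in the simulation. *PSMD2* passed there at 0.29, so the simulated shares do not give the smallest change that can be called. Between arrays, the root mean square difference was 0.128 to 0.239 log2 units, so none was a copy. Filter, probe set choice, normalization, variance model, covariates and left-out arrays were varied.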

Additional observations from a re-analysis of the deposited data

How the results depend on the processing

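The treatment count was 0 genes, members included, in limma under every alternative run: no or a stricter filter, mean of probe sets, no cross-hybridising probe sets, quantile normalization, median centring, trend, array weights, RNA integrity as covariate and each left-out array. A fit with a replicate block also gave 0, with 815 genes and 0 members at an unadjusted p under 0.05, and the members' median stayed at 0.022. Deviations of same-numbered arrays correlated at 0.55, 0.073 and 0.65 in replicates 1, 2 and 3. The labels state no pairing, and whether same-numbered arrays were paired was not tested. The members' median treatment difference was -0.0097 to 0.053 with an array left out. *PSMC2* was reversed with averaged probe sets (-0.031); the other 64 of 65 values of the 5 named treatment genes kept their sign but not their size: with an array left out *PSMC2* had 0.013 to 0.16, *PSMB3* 0.042 to 0.14, *PSMB2* 0.039 to 0.11, *PSMA5* 0.034 to 0.095 and *PSMD9* 0.051 to 0.10, and averaging took *PSMD9* to 0.0079 and *PSMB2* to 0.0086.

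Counts between replicate numbers depended on the settings. The F test called 320 genes and 0 members; 2 genes without a filter, 1098 and 4 members with the stricter filter at the 60th percentile, 1797 and 12 with a variance trend, 526 and 2 without the treatment term, and 0 to 539 genes and 0 to 1 members with an array left out. Between numbers 3 and 1, the counts of 1040 genes and 5 members became 169 and 0 without a filter, 1652 and 9 with the stricter filter, 2305 and 15 with the trend, and 0 to 1440 and 0 to 5 with an array left out; without probe sets that may cross-hybridise 3 members passed. The 5 members kept their sign in every alternative run for them. The cause of these changes was not tested. Leaving out an array of number 1 or 3 left 1 array on that side. Having 2 arrays for each number limits what this comparison can call.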
